A study of Dugesia japonica with 16 samples.

Results

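The 4 RCTR3 libraries were set against the 4 vehicle libraries of a planarian head regeneration experiment, chosen by their treatment label, which makes 8 of the 16 libraries of the series. Each came from posterior pieces of *Dugesia japonica* that had been fasted for 7 days at 20 °C, cut behind the eyes and left to regenerate for 48 h. RCTR3 was added to the water at 10 nM, and the vehicle pieces received 0.1% ethanol; the sources used here do not state the ethanol content of the RCTR3 water. Poly(A)-enriched RNA was sequenced, and the tissue is the whole regenerating piece, so fewer cells of a type and less RNA per cell cannot be told apart in any value below. MCTR3 and PCTR3, 4 libraries each at the same 10 nM and 48 h, served to show where RCTR3 differed from its relatives. Vehicle and MCTR3 carry the library numbers 1 to 8 and PCTR3 and RCTR3 the numbers 9 to 16. Treatment and place in the numbering thus cannot be told apart for RCTR3 against vehicle or against MCTR3, or for PCTR3 against vehicle. A likeness of RCTR3 to PCTR3, or of MCTR3 to vehicle, also follows this numbering. The labels do not say whether libraries of a group came from separate batches of worms, and p-values measure the spread between libraries, which may be technical.

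RCTR3 is the resolvin member of the conjugates in tissue regeneration, lipid mediators made from docosahexaenoic acid. In mammalian cells an enzyme adds glutathione to an epoxide made from that fatty acid, and peptidases then trim the glutathione to cysteinylglycine and to cysteine; the form used here carries the cysteine. Planarians rebuild a head from neoblasts, the dividing stem cells that populate the blastema at the wound, while the remaining tissue is remodelled. Transcript identifiers are not paired with gene names in the deposited file, so features are given by identifier and no gene function is attached to them. The unit was the assembly component, which groups related transcripts of the assembly under a common identifier stem, with TPM (length-corrected abundance relative to the library total) summed over its transcripts. Of 16873 components, 15505 reached 1 TPM in at least 4 of the 8 libraries and were tested. The 1368 others held 0.0579% ± 0.00541 of vehicle TPM and 0.0759% ± 0.00449 of RCTR3 TPM (SD, n = 4 each).

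RCTR3 libraries spread their transcripts over more components than vehicle libraries. The components at 1 TPM or more numbered 15330, 15281, 15368 and 15128 in vehicle replicates 1 to 4 and 15527, 15559, 15449 and 15500 in RCTR3 replicates 1 to 4, with no overlap (exact two-sided permutation p = 0.0286, the smallest 4 against 4 allows; Benjamini-Hochberg 0.0381 over 4 library measures). The 100 most abundant components of each library held 31.2% ± 0.73 of TPM in vehicle and 28.8% ± 0.446 with RCTR3, and again every RCTR3 library lay below every vehicle library (SD, n = 4; exact permutation p = 0.0286, adjusted 0.0381). Components with a single assembled transcript held 67.8% ± 0.343 of TPM in vehicle and 66.1% ± 0.328 with RCTR3 (exact permutation p = 0.0286, adjusted 0.0381). These traits are not particular to RCTR3. In the order of these measures, PCTR3 libraries ranged over 15396 to 15521, 28.7% to 29.7% and 66.3% to 67%, also outside the vehicle ranges. The MCTR3 ranges were 15323 to 15423, 30.1% to 30.4% and 67.2% to 67.4%. For the single-transcript share, MCTR3 also lay wholly below the vehicle range of 67.5% to 68.3%. Its other ranges overlapped those of vehicle. The number of components at 0 did not separate the groups, at 169 to 219 in vehicle and 179 to 205 with RCTR3 (exact permutation p = 0.83, the same after adjustment). Spearman's rho over all components was 0.99 to 0.996 among the 6 pairs of RCTR3 libraries, 0.989 to 0.996 among vehicle pairs, and 0.966 to 0.989 across the 16 RCTR3 and vehicle pairs. Across RCTR3 and PCTR3 pairs it was 0.989 to 0.995, and across RCTR3 and MCTR3 pairs 0.982 to 0.991. Read depth is unknown, because TPM does not keep it, so values carry the spread between 4 libraries and no counting interval.

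The comparison of RCTR3 with vehicle asked which components differed in head regeneration with the resolvin conjugate. Of the 15505 components 7021 differed, or 45.3%, with 3390 higher (21.9%) and 3631 lower (23.4%) with RCTR3 (limma on log2(TPM + 1), Benjamini-Hochberg adjusted p under 0.05, here named a call). Small changes made up most of this response. The median difference on the log2(TPM + 1) scale was 0.42 among the rises and -0.35 among the falls, or 1.34-fold and 1.27-fold, and 76.3% of the rises and 88.4% of the falls stayed within 1.5-fold. On the same scale there were 108 rises and 30 falls past 2-fold, and 0 rises and 2 falls past 4-fold. All RCTR3 libraries lay above all vehicle libraries for 2979 components (19.2% of those tested) and below them for 3288 (21.2%); 2723 and 3069 of these were called. A switch from 0 in every library of one group to 1 TPM or more in every library of the other was seen for 0 components. Only 12 tested components were listed at 0 in any of the 8 libraries, and values next to 0 did not count. The absence of such switches therefore says little about components that come close to 0. For the 8484 components that were not called, intervals were taken on the log2(TPM + 1) scale, which understates the fold of low components. The 95% interval of the difference did not reach 2-fold for 99.4% of them and did not reach 1.5-fold for 90.2%.

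**Figure D1:**
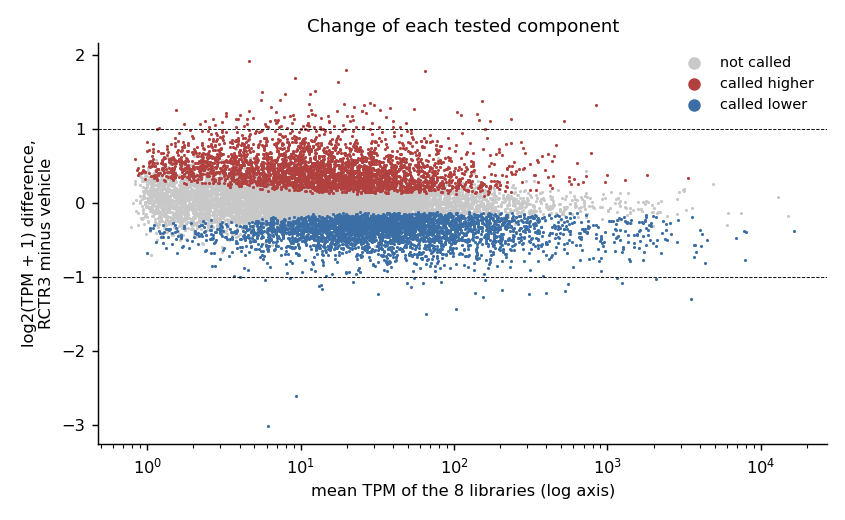
Each point is 1 of the 15505 tested components, with its mean TPM over the RCTR3 and vehicle libraries (x, log axis) and its log2(TPM + 1) difference, RCTR3 minus vehicle (y); dashed lines mark 2-fold. The 3390 rises and 3631 falls lie mostly inside the dashed lines, rises reach 1.92, falls reach -3.01, and points far to the right are mostly lower.

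The split into rises and falls moved with the scaling between libraries. The deposited TPM summed to 1065 ± 43.8 kTPM (kilo-TPM) in vehicle and 953 ± 18 kTPM with RCTR3 (SD, n = 4), although TPM as such sums to the same total in each library; how this factor per library arose was not tested. Rescaling every library to a common sum gave 7713 calls, of which 5938 were higher and 1775 lower, and moved the median of all components from 0.01 to 0.15 on the log2 scale. A total without the 100 most abundant components gave 4976 higher and 2255 lower, with a median over all components of 0.10. Median centring (3168 higher and 3859 lower) and quantile normalization (3134 and 3565) stayed near the deposited split. Past 2-fold, the 108 rises and 30 falls became 191 and 13 with a common sum, 154 and 16 with the total without the 100 most abundant components, 99 and 30 with median centring, and 84 and 25 with quantile normalization.

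The component with the largest rise by the naming rule was comp136966_c1, a single assembled transcript of low abundance. It stood at 2.55, 0.954, 1.76 and 0.387 TPM in vehicle replicates 1 to 4 and at 10.6, 7.32, 5.1 and 8.39 TPM in RCTR3 replicates 1 to 4. All RCTR3 libraries lay above all vehicle libraries, and the difference was 1.92 on the log2(TPM + 1) scale (SE 0.26; limma adjusted p = 5.6e-05). Next came comp144303_c2, also a single transcript, at 8.93, 6.29, 10.2 and 7.73 TPM in vehicle and 39.7, 30.7, 26.2 and 28.6 TPM with RCTR3. Its lowest RCTR3 library was above its highest vehicle library by more than 2-fold, and the mean rose from 8.3 ± 1.69 to 31.3 ± 5.87 TPM, or 3.77-fold (SD, n = 4; log2(TPM + 1) difference 1.80, SE 0.15; limma adjusted p = 7.6e-06).

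**Figure D2:**
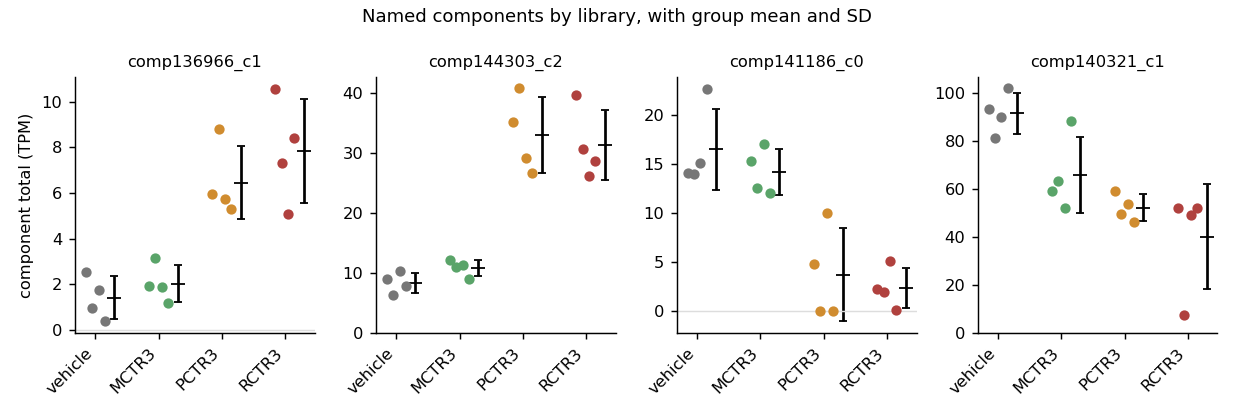
Component totals in TPM (y) of the 4 components named for RCTR3 against vehicle, by treatment group (x); points are libraries, and bars give the group mean and SD (n = 4). In the left pair every RCTR3 point lies above every vehicle point, in the right pair below, and comp140321_c1 has a single RCTR3 library at 7.28 TPM with the others between 49 and 52.2 TPM.

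Falls past 2-fold on the log2(TPM + 1) scale were rarer than such rises, at 30 against 108. The only changes past 4-fold on it were 2 falls. In plain TPM the mean of comp136966_c1 rose from 1.41 to 7.84 TPM, or 5.55-fold. The absence of rises past 4-fold thus belongs to the log2(TPM + 1) scale. The size of some falls depended on a single library. comp141186_c0 stood at 14.1, 14, 15.1 and 22.7 TPM in vehicle and at 2.21, 1.93, 5.07 and 0.0921 TPM with RCTR3. Its mean fell from 16.5 ± 4.17 to 2.33 ± 2.06 TPM (SD, n = 4; log2(TPM + 1) difference -2.61, SE 0.62; limma adjusted p = 0.0028). comp140321_c1 stood at 93.4, 81.4, 90.4 and 102 TPM in vehicle and at 52.2, 7.28, 49 and 52.2 TPM with RCTR3. All RCTR3 libraries were lower, but replicate 2 set the size of the change, which was -1.49 (SE 0.41; limma adjusted p = 0.0074) with it and -0.83 (limma adjusted p = 0.00029) without it. A component outside the naming rule, comp144741_c0, chosen after its values were seen, had the lowest log2(TPM + 1) difference of all calls at -3.01 (SE 0.69; limma adjusted p = 0.0022). It was listed at 0 in RCTR3 replicates 1 and 4, stood at 3.7e-07 TPM in replicate 3 and at 2.75 TPM in replicate 2, and lay at 12.7, 5.39, 6.99 and 21.6 TPM in vehicle. The most abundant of the falls past 2-fold was comp67611_c0, also chosen after its values were seen. It stood at 4980, 4456, 4722 and 5634 TPM in vehicle and at 1844, 1423, 2566 and 2387 TPM with RCTR3, with no overlap (log2(TPM + 1) difference -1.30, SE 0.17; limma adjusted p = 5e-05).

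Under the deposited scaling, rises were more frequent among rare components and falls among abundant ones. The tested components were cut into 5 classes of equal number by mean TPM, from class 1, the least abundant, to class 5. In class 1 (median 2.45 TPM) 692 rose and 160 fell, so that 81.2% of the calls were rises. In class 5 (median 100.1 TPM) 483 rose and 1373 fell, and 26% of the calls were rises. The classes between them gave 63.8%, 50.5% and 42.6% in order of abundance. The share of components called at all ran the other way and increased with abundance, from 27.5% in class 1 to 59.9% in class 5. Of the 100 components most abundant in vehicle, 2 rose and 65 fell, with a median log2(TPM + 1) difference of -0.30, against 0.01 over all tested components. The gradient was present under 3 of the other 4 scalings, but each of these 3 applies a single factor or shift per library. That moves all components nearly alike and could hardly remove a difference between classes, so its persistence there is not a test of the gradient. Under a common TPM sum the shares of rises in classes 1 and 5 were 94.2% and 56.1%, under the total without the 100 most abundant components 91.8% and 45.8%, and under median centring 79% and 23.7%. Quantile normalization, which by construction gives each library the same distribution of values, left 50.5% and 46.4%.

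**Figure D3:**
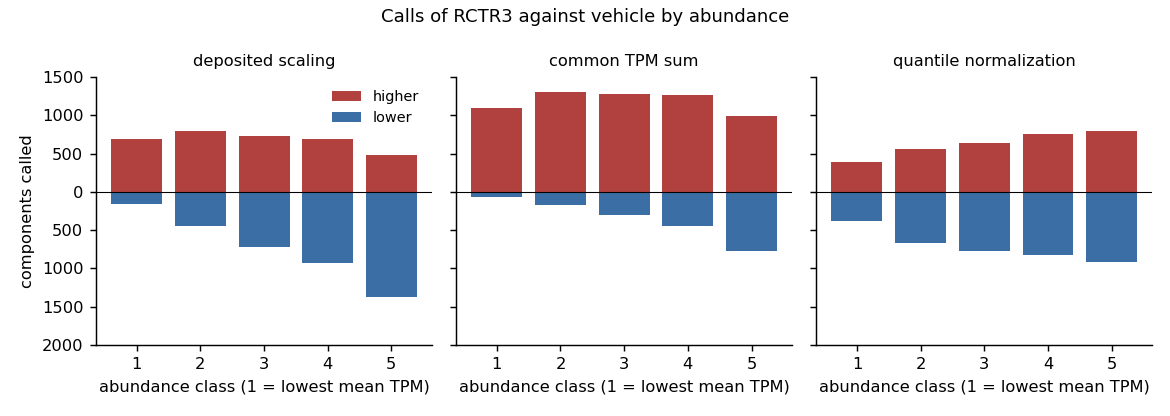
Components called for RCTR3 against vehicle (y, number higher above the line and lower below it) by abundance class (x, 1 the lowest mean TPM), with the deposited scaling, a common TPM sum and quantile normalization. Falls grow from 160 to 1373 from class 1 to class 5 with the deposited scaling and from 67 to 780 with a common sum; after quantile normalization rises and falls are 388 and 381 in class 1 and 790 and 914 in class 5.

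With the deposited scaling, the falls lost more TPM than the rises gained. All components together changed by -113 kTPM with RCTR3 on this scaling, so the gap depends on the factor per library. With a common sum, gains and losses over all components are equal by definition. The 3631 components that fell held 551 ± 38.9 kTPM in vehicle and 409 ± 15 kTPM with RCTR3, a loss of 141 kTPM. The 3390 that rose held 94 ± 3.91 and 127 ± 7.2 kTPM, a gain of 33.4 kTPM, while the 8484 without a call held 420 ± 11.3 and 415 ± 10.4 kTPM (SD, n = 4). The factor per library does not touch a component's share of its library, but it did enter the choice of these sets. With a common sum 5938 components were called higher and 1775 lower. For the sets of the deposited scaling, the share of the falls went from 51.7% ± 1.59 to 43% ± 1.3. The rises went from 8.84% ± 0.673 to 13.4% ± 0.763 and the components without a call from 39.4% ± 0.943 to 43.6% ± 0.572. These sums and shares describe components chosen by the same comparison and carry no test. The 100 components with the largest losses went from 284 ± 22.1 to 208 ± 9.96 kTPM.

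The balance also differed with the number of transcripts the assembler had placed in a component. Among the 8376 components with a single transcript 1619 rose and 2269 fell, so that 41.6% of calls were rises. The share was 55.3% in components of 2 to 4 transcripts, 57.6% in those of 5 to 9 and 63.6% in those of 10 or more, where 189 rose and 108 fell. The median mean abundance of these sets was 16.2, 15.2, 21.4 and 24 TPM. Within abundance class 5, rises were 17.8% of the calls among single-transcript components (215 rose, 993 fell) and 41.4% among the others (268 rose, 380 fell). In class 1 the shares were 80.9% and 81.9%. Components whose identifiers share the number before the suffix _c formed 372 pairs in which both were called, and in 260 of these (69.9%) both moved the same way, against 50.1% for any pair of called components.

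Calls were also made for the transcripts inside components. Fitted as transcripts, 8155 of 25916 differed (31.5%), and 996 of these passed 2-fold, against 138 components. Of the called transcripts, 6414 lay in a component called in the same direction, 1481 in a component without a call and 260 in a component called the opposite way. Over all 8155 called transcripts the median size of the difference was 0.51 for the transcript and 0.35 for its component. These include transcripts that are alone in their component, where both are the same value. For the 4807 called transcripts in components of 2 or more, the medians were 0.60 and 0.29. The transcripts were chosen by their own difference, so this is a description with no test. Components of 2 or more transcripts with called members numbered 3386, and 540 of them held both a rise and a fall; the totals of 314 of these 540 were not called. The component comp143021_c0, chosen after its values were seen because it holds the largest transcript rise, shows the arithmetic. Its total stood at 117, 117, 110 and 84.9 TPM in vehicle and 343, 202, 195 and 212 TPM with RCTR3 (log2(TPM + 1) difference 1.11, SE 0.21; limma adjusted p = 0.00061). The transcript comp143021_c0_seq5 made up most of the vehicle total, with 82.4 ± 17.2 TPM in vehicle and 87.2 ± 7.8 TPM with RCTR3 (limma adjusted p = 0.56 over transcripts), while comp143021_c0_seq11 went from 2.15 ± 1.06 to 127 ± 71.1 TPM (SD, n = 4).

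The RCTR3 libraries differed among themselves in how far they lay from vehicle. Over the 3390 rises, the median log2(TPM + 1) distance from the vehicle mean was 0.49, 0.43, 0.36 and 0.38 in RCTR3 replicates 1 to 4, and 0.04, 0.02, 0.04 and -0.09 in vehicle replicates 1 to 4. Over the 3631 falls it was -0.39, -0.35, -0.30 and -0.34 with RCTR3 and -0.04, -0.06, -0.03 and 0.13 in vehicle. Vehicle replicate 4 thus lay on the far side of vehicle from RCTR3 in both lists. Without it the calls numbered 5825, with 2823 rises and 3002 falls, and the components past 2-fold were 92 in place of 138. Without RCTR3 replicate 1, the library farthest from vehicle in both lists, the calls numbered 5920, with 2795 rises and 3125 falls. Leaving out any other library of either group gave between 6309 and 6739 calls. These medians are over components chosen from the same libraries and are a description. In the PCTR3 libraries, which entered the fit only through the shared estimate of the spread and are set against the same vehicle libraries, the medians were 0.26 to 0.48 over the rises and -0.41 to -0.21 over the falls. In the MCTR3 libraries they were 0.10 to 0.15 and -0.12 to -0.09.

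**Figure D4:**
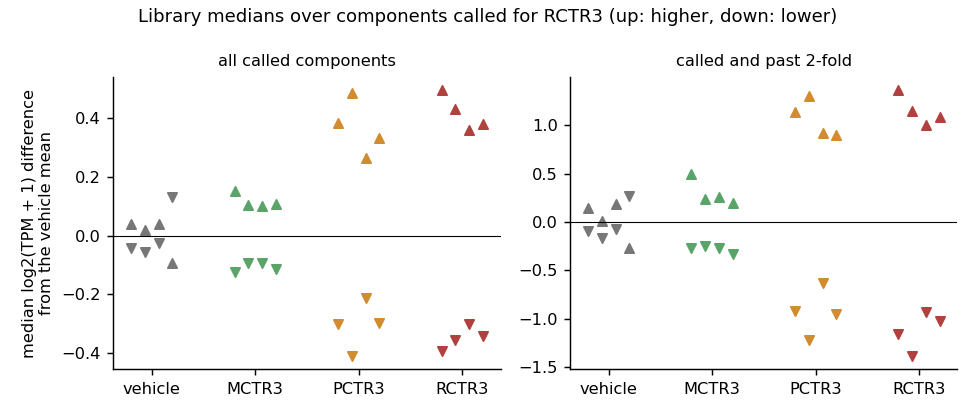
Median log2(TPM + 1) difference from the vehicle mean (y) in each library, by group (x), over the components called for RCTR3 against vehicle (left) and over the 108 rises and 30 falls past 2-fold (right); upward triangles are the rises and downward triangles the falls. RCTR3 and PCTR3 libraries lie in overlapping ranges far from 0, and MCTR3 libraries lie between them and vehicle. RCTR3 and PCTR3 also share a side of the library numbering, as do MCTR3 and vehicle.

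RCTR3 and PCTR3, the protectin conjugate, were compared directly at the same dose and time. They are conjugates of the same fatty acid whose cysteine sits at another carbon, and RCTR3 carries an additional hydroxyl group. No component of 15505 passed the threshold (0%; limma, smallest adjusted p = 0.846), and 468 components had an unadjusted p under 0.05 (3.02%). Without PCTR3 replicate 2 the latter count was 972, with 0 components past the threshold (limma, smallest adjusted p = 0.219). On the log2(TPM + 1) scale, the 95% interval of the difference stayed inside 2-fold for 99.8% of the components and inside 1.5-fold for 95.6%. That scale understates the fold of low components. Smaller differences are not bounded. With p-values adjusted over both compound pairs, RCTR3 against PCTR3 and against MCTR3, 33 components passed for PCTR3. Of these, 18 were higher and 15 lower with RCTR3 (limma). That setting was chosen after seeing the data and takes its threshold from the many low p-values against MCTR3. It therefore does not establish a difference from PCTR3. The 4 components named here were picked by lowest p and are among the 33 (limma adjusted p = 0.0037 to 0.018). The component with the lowest p, comp132567_c0, stood at 2.77, 4.23, 3.95 and 2.72 TPM with PCTR3 and at 6.31, 5.53, 5.73 and 5.29 TPM with RCTR3. Its groups did not overlap, as held for 288 components (1.86%), and the difference was 0.62 (SE 0.12; limma adjusted p = 0.846). In vehicle it stood at 2.65 ± 0.269 TPM (SD, n = 4). Also higher with RCTR3 was comp52528_c0, with 11.9 ± 1.82 against 8.04 ± 1.18 TPM (limma adjusted p = 0.9995), and lower were comp105358_c0, with 64.1 ± 7.75 against 79.1 ± 4.87 TPM, and comp128934_c0, with 1.27 ± 0.427 against 2.41 ± 0.526 TPM (SD, n = 4; limma adjusted p = 0.9995 for each). For the named components of RCTR3 against vehicle, the PCTR3 means were 6.45 ± 1.6 TPM for comp136966_c1, 33 ± 6.39 for comp144303_c2, 3.67 ± 4.75 for comp141186_c0 and 52.3 ± 5.56 for comp140321_c1. Against the same vehicle libraries 6165 components were called for PCTR3 (39.8%). comp140321_c1 was not called (difference -0.80, SE 0.41; limma adjusted p = 0.13), although its PCTR3 libraries, at 59.2, 49.8, 53.9 and 46.3 TPM, all lay below the vehicle libraries. That SE is shared by all groups and includes the RCTR3 library at 7.28 TPM, and the difference is close to the -0.83 of RCTR3 without that library.

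RCTR3 differed from MCTR3, the maresin conjugate, at the same dose and time. MCTR3 likewise carries its cysteine at another carbon and lacks the additional hydroxyl group of RCTR3. Of the 15505 components 4385 were called (28.3%), 2127 higher (13.7%) and 2258 lower (14.6%) with RCTR3 (limma, adjusted p under 0.05). The median difference was 0.39 among the higher and -0.31 among the lower, with 32 and 5 past 2-fold. A common TPM sum gave 3447 higher and 1277 lower, and the total without the 100 most abundant components 2864 and 1577. Without RCTR3 replicate 1 the calls numbered 2963, and with p-values adjusted over both compound pairs 3263. MCTR3 against vehicle gave 0 calls (0%, limma), with 1500 components at an unadjusted p under 0.05 (9.67%). Both comparisons with 0 calls, this and RCTR3 against PCTR3, stay within library numbers 1 to 8 or 9 to 16. Those with calls cross that split, so compound and place in the numbering cannot be told apart here.

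**Figure D5:**
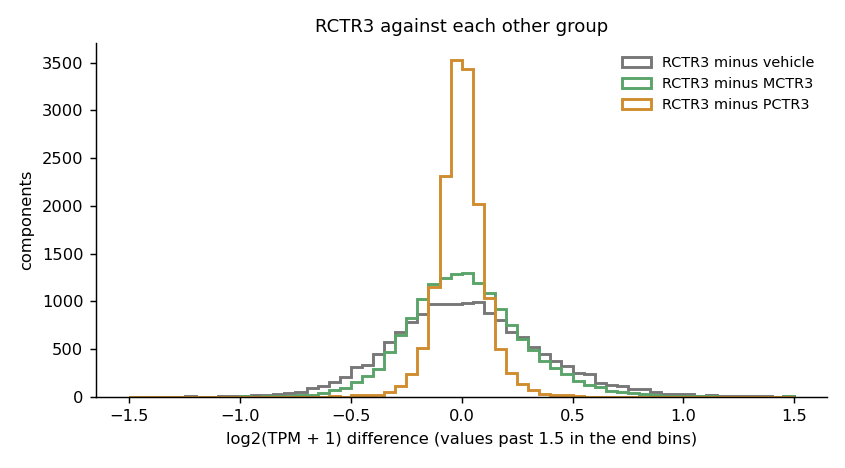
Number of tested components (y) by log2(TPM + 1) difference (x, bins of 0.05) of RCTR3 against vehicle, MCTR3 and PCTR3, with values past 1.5 in the end bins. The curve against PCTR3 is the narrowest, with a median absolute difference of 0.06, against 0.16 for MCTR3 and 0.21 for vehicle.

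The components highest over MCTR3 were also higher with RCTR3 than in vehicle. comp68056_c0 stood at 290.2, 148, 176 and 282 TPM with RCTR3 and at 72.9, 51.2, 56.4 and 52.9 TPM with MCTR3, a difference of 1.88 (SE 0.24; limma adjusted p = 0.00045). Its vehicle libraries stood at 102, 88.9, 75.3 and 64.9 TPM, below every RCTR3 library and overlapping the MCTR3 range (RCTR3 minus vehicle 1.39; limma adjusted p = 0.00028), and MCTR3 was not called against vehicle (difference -0.49; limma adjusted p = 0.52). comp137872_c0 had the same order of means, with 324 ± 64.5 TPM for RCTR3, 147 ± 25.6 for vehicle and 105 ± 21.9 for MCTR3 (SD, n = 4; RCTR3 minus MCTR3 1.62, SE 0.20; limma adjusted p = 0.00045). Lower with RCTR3 were comp141186_c0, with 2.33 ± 2.06 TPM against 14.2 ± 2.34 TPM for MCTR3 (difference -2.42, SE 0.62; limma adjusted p = 0.0089), and comp126198_c5, with 8.54 ± 3.86 against 17.3 ± 1.26 TPM (difference -1.04, SE 0.25; limma adjusted p = 0.0071). The call of comp141186_c0 ended with a pseudocount of 0.1 (limma adjusted p = 0.055, the highest over its alternatives, which began at 0.0014). PCTR3 stood at 134 ± 44.7 TPM for comp68056_c0 and 242 ± 85.1 TPM for comp137872_c0, below the RCTR3 means, with limma adjusted p = 0.9995 for each difference from RCTR3; RCTR3 minus PCTR3 was 0.75 (SE 0.24) and 0.46 (SE 0.20) on the log2(TPM + 1) scale.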

How the data were processed

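The authors deposited log2 TPM per transcript for 16 libraries. Kallisto and sleuth appear in the submitters' processing notes, and their versions, the transcript set and any filter are not stated in the sources used here. The lowest value of the file (-34.92) was set to 0 TPM, the others were turned to linear TPM and summed over the transcripts of a component. Components at 1 TPM or more in 4 of the 8 RCTR3 and vehicle libraries were fitted on log2(TPM + 1) with limma 3.58.1 in R 4.3.3: 4 group means over all 16 libraries, empirical Bayes with an intensity trend, two-sided p-values, Benjamini-Hochberg adjustment over all tested components. Such changes understate those of low components. Single measures per library were compared by exact permutation tests (scipy 1.17.1). The fit was tested on simulated data of 15505 components for RCTR3 against vehicle, with 50 components changed at each size. It recovered 46% of the 1.25-fold, 84% of the 1.5-fold and 100% of the 2-fold and 4-fold changes, with 13 false calls. The simulation used independent noise and few changed components, whereas 45.3% were called in the data. It therefore does not give the share of false calls in the data. At most 2 components per direction and comparison are named: the largest change among called components above 0 in every library compared whose groups do not overlap, otherwise the lowest p. Exceptions are marked. The libraries, components and tests were chosen with earlier results of these data known. No pair of the 120 library pairs held identical values. Same-numbered libraries of different groups did not deviate together throughout, so replicate numbers were not used as pairs. Alternatives covered pseudocounts, filters, scalings, the fitted libraries, a replicate block, transcripts in place of components and leaving out each library.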

Additional observations from a re-analysis of the deposited data

Results flagged for a closer look

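Of 74 groups of 4 libraries checked, 7 held a library far from the other 3 by Dixon's test at the 95% level, where chance alone gives about 1 in 20. Vehicle replicate 4 was the high library for comp141186_c0 (22.7 TPM) and for comp126198_c5 (23.6 TPM), and it was high in the median over the components called lower with RCTR3 (0.13 on the log2(TPM + 1) scale from the vehicle mean). RCTR3 replicate 2 was low for comp140321_c1 (7.28 TPM), high for comp144741_c0 (2.75 TPM, with the others at or next to 0) and low in its TPM sum (926.1 kTPM, against 959.3 to 965.7 kTPM in the other RCTR3 libraries). RCTR3 replicate 1 was high for comp143021_c0 (343 TPM).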

How the results depend on the processing

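RCTR3 against vehicle gave 6262 to 7713 calls under every scaling, pseudocount, filter and choice of fitted libraries tried, 8155 for transcripts, and 5825 to 6739 with 1 library left out. RCTR3 against MCTR3 gave 4174 to 4842 calls under those settings and 2963 to 4164 with 1 library left out. RCTR3 against PCTR3 gave 0 calls under all of them, and 33 (18 higher, 15 lower) when p-values were adjusted together with those against MCTR3, a setting chosen after seeing the data that takes its threshold from the many low p-values of the other comparison; the lowest-p components named then had limma adjusted p of 0.0037 to 0.018. With the replicate number as a block (replicate block) the counts were 6901, 0 and 4362; same-numbered RCTR3 and vehicle libraries deviated together with r of -0.20 to 0.12, and 1 of 4 RCTR3 libraries correlated best with its own number, so the numbers are not taken to pair them. With 1 library left out the library measures could not pass an exact permutation p of 0.0571; their differences were 182 to 262 components at 1 TPM or more, -2.76 to -2.17 percentage points in the 100 most abundant, -1.76 to -1.46 in single-transcript components, and -12.4 to 4.25 components at 0, whose sign turned without vehicle replicate 4 (4.25) and without RCTR3 replicate 4 (1.5). The 11 named components and 3 others kept their direction under each alternative that gave them a value; comp128934_c0 gave none with the filter of 5 TPM. Depth is unknown, which limits what can be said of components near 1 TPM.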
